A study of Homo sapiens with 16 samples.

Results

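BCL11A occupied 5512 distal regions of the genome in HUDEP-2 cells, and at 2150 of them, 39.0%, no ZBTB7A region of 3 lists overlapped. These 2150 distal BCL11A regions without ZBTB7A, called ZBTB7A-free below, are described here. They were chosen by comparing the deposited peak lists: each is a unique region of the BCL11A list whose midpoint lay over 5 kb from every start of a protein-coding (NM) transcript in the authors' annotation, and it shared no base with a ZBTB7A region. Chromosome 11, which the authors had modified for some of the lists, was left out. The name refers to absence from 3 lists and not to absence of the protein, because the read depth behind the lists is unknown.

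The series measured binding by chromatin immunoprecipitation with sequencing (ChIP-seq) in 16 libraries, 8 ChIP and 8 controls. BCL11A was measured in the immortalised human erythroid progenitor line HUDEP-2, through an inducible fusion, BCL11A-ER-V5, after 24 h with 4-hydroxytamoxifen at 1e-07 M, in 2 ChIP libraries against the V5 tag and 2 controls. ZBTB7A was measured in K562, an erythroleukaemia line with no treatment in the labels (4 ChIP and 4 control libraries). It was also measured in HUDEP-2 (ΔGγ) cells, in which the Gγ-globin gene HBG2 is missing from the authors' annotation, either WT or carrying 195C>G (a γ-globin promoter change), with 1 ChIP and 1 control library each and no treatment in the labels. All HUDEP-2 cells were grown with SCF, EPO, dexamethasone and doxycycline. The V5 antibody reads the tagged fusion and not the cell's own BCL11A. BCL11A and ZBTB7A were therefore measured in different cells, and differences in antibody, cell line, genotype or induction cannot be told apart from differences between the proteins. The sources used here do not say whether a ΔGγ line was 1 clone.

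BCL11A and ZBTB7A are zinc-finger repressors that silence the fetal γ-globin genes in adult red cells, each through its own site in the γ-globin promoters and each with the NuRD corepressor complex. BCL11A reads the short sequence TGACCA. Distal sites of such factors lie in introns and between genes, often in enhancers that are also read by GATA1 and TAL1, the leading activators of erythroid genes.

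Some of the ZBTB7A-free regions lay at or close to a gene start in RefSeq, mostly that of a noncoding gene. For these the sequence could be read from RefSeq promoter windows (GRCh38.p14, 250 bases before to 50 after a start). Of the 2150 regions, 63 (2.93%) touched such a window, compared with 145 of 3362 distal regions that shared ZBTB7A (4.31%). The 69 windows touched were mostly those of noncoding genes, 53 of 69 (76.8%), whereas noncoding genes made up 37.0% of all 33223 windows. Of the strongest by BCL11A score among those clear of NM exons, 5 are shown, as the part of the window inside the BCL11A region, on the strand of the noncoding RNA. Capitals mark matches on either strand to 13 motifs searched, of which TGACCA (BCL11A), GGGCGG (SP factors), GACCC (ZBTB7A), TGANTCA (AP-1 and NFE2), CCAAT (NFY), AGGAAGT (ETS) and CCACACCC (KLF) occurred in these 5. Adjacent or overlapping matches run together in capitals.
PRECSIT: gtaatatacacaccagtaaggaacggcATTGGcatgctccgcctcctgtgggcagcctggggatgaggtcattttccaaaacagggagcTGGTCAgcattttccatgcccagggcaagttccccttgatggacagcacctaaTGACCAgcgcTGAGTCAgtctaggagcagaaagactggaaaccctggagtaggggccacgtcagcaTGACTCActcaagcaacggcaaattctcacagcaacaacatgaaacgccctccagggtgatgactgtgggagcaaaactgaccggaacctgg
LOC105373195: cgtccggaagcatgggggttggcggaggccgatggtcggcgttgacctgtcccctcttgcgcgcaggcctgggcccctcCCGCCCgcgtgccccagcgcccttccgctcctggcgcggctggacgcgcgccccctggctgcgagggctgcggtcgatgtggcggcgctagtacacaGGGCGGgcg
ELFN1-AS1: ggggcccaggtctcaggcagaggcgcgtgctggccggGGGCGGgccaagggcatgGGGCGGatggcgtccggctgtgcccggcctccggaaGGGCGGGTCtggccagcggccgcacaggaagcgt
LINC01220: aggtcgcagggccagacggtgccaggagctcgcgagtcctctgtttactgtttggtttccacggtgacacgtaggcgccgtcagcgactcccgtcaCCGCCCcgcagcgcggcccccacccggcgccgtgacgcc
LOC124906214: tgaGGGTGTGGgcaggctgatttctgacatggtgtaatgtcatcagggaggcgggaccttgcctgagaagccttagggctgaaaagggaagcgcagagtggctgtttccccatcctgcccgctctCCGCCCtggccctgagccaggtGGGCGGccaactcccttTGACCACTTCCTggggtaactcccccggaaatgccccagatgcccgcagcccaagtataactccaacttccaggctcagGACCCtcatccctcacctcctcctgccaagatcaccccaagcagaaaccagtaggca

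The PRECSIT sequence (chr13:110870259-110870558, minus strand) lay in the strongest of these regions, with a score of 124, 44.7 kb from the start of ANKRD10, and held TGACCA 2 times and the AP-1 motif 2 times. Its GC content was 54.0%. The LOC105373195 sequence (chrX:49156338-49156522, minus strand, score 62.6), near MAGIX, and the ELFN1-AS1 sequence (chr7:1742281-1742405, minus strand, score 59.7), near ELFN1, held no TGACCA and were 76.2% and 77.6% GC. In the ELFN1-AS1 sequence the last GGGCGG overlaps the reverse strand of GACCC. The LINC01220 sequence (chr14:75294154-75294288, plus strand, score 46.3) lay 15.3 kb from the start of FOS, which encodes an AP-1 subunit, and 0.041 kb from a ZBTB7A region. The LOC124906214 sequence (chr3:13009340-13009639, plus strand, score 44.2) lay in a group of ZBTB7A-free regions at IQSEC1 and held TGACCA overlapping an ETS match on the other strand. The 5 differ in letters and in base composition, and only PRECSIT and LOC124906214 hold the BCL11A motif.

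Across all 69 windows, TGACCA was found in 14 (20.3%, exact Clopper-Pearson 95% interval 11.6 to 31.7), compared with 24 of 147 windows of ZBTB7A-shared distal regions (16.3%, 10.7 to 23.3) and 10.7% of all RefSeq windows. AGATAA, the motif of GATA factors, was found in 5 of 69 (7.25%, 2.39 to 16.1), in 20 of 147 shared windows (13.6%, 8.51 to 20.2) and in 10.3% of all windows. The intervals of the ZBTB7A-free and shared windows overlap for both motifs. GACCC occurred in 71.0% of the ZBTB7A-free windows and in 71.4% of the shared ones, against 47.5% of all windows, and GGGCGG in 59.4% and 68.7% against 45.1%. Over the 12307 windows of noncoding genes alone, the shares were 13.1% for TGACCA, 14.5% for AGATAA, 40.6% for GACCC and 25.6% for GGGCGG. The windows were GC-rich, with a median of 66.3% in the ZBTB7A-free set, 67.7% in the shared set, 58.7% over all windows and 50.0% over noncoding ones, and the part of base composition in the motif shares was not tested. All intervals here and below cover counting error only, and regions that overlap or lie together are not independent.

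The ZBTB7A-free regions made up a larger share of the distal than of the start-near BCL11A regions. Over all 12245 BCL11A regions outside chromosome 11, 33.1% overlapped no ZBTB7A region. Within 5 kb of an NM start the count was 1906 of 6733 (28.3%, 27.2 to 29.4), and beyond 5 kb it was 2150 of 5512 (39.0%, 37.7 to 40.3). This difference is part of how the regions were chosen and is given as a description. Of all 5512 distal regions, the WT list covered 2970 (53.9%), the 195C>G list 2136 (38.8%) and the K562 list 1283 (23.3%). All 3 lists covered 829 (15.0%). In all, 797 distal regions were kept out of the ZBTB7A-free set by the WT list alone, 257 by the K562 list alone and 110 by the 195C>G list alone. The lists differ in length, with 34582 WT, 17790 195C>G and 16332 K562 regions, so their order is not a ranking of cells.

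The ZBTB7A-free region nearest to the distance limit (chr17:82103050-82103419, score 14.8) lay 5004 bp from the start of FASN, the fatty acid synthase gene. The nearest region without ZBTB7A that the limit left out (chr9:128942544-128942913, score 26.9) lay 4964 bp from the start of NUP188, a nuclear pore gene. There were 2 ZBTB7A-free regions that abutted a ZBTB7A region with a gap of 0 bp, at DEDD2 (chr19:42199427-42199796, score 66.3) and at SLC25A37, and 74 (3.44%) lay within 100 bp of one. On the other side, a region at IQSEC1 (chr3:13008124-13008493, score 23.0) counted as shared through an overlap of 3 bp, and 140 of 3362 shared regions (4.16%) overlapped by at most 100 bp.

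BCL11A scores of the ZBTB7A-free regions lay low in the list. The authors' score for a region, whose scale the sources used here do not state, had a median of 23.6 (quartiles 17.2 and 39.2, range 12.8 to 614) in the ZBTB7A-free regions and 34.2 (21.1 and 64.5, up to 2348) in the ZBTB7A-shared distal ones. Among start-near regions without ZBTB7A the median was 26.8. Split by deciles of the whole BCL11A list, the share of distal regions that were ZBTB7A-free was 19.1% (16.0 to 22.4) in the strongest decile, 35.3% in decile 5 and 55.9% (51.8 to 59.9) in the weakest. Start-near regions ran from 15.1% (12.3 to 18.1) to 33.9% (30.2 to 37.8) over the same deciles. The plot of these shares by score shows that the distal and start-near shares lay within 5 percentage points of each other in the strongest 4 deciles and farther apart in the weaker ones. Region width moved with the score: 80.2% of ZBTB7A-free regions had a width of 370 bp, compared with 66.5% of shared ones, and within the ZBTB7A-free set this was 17.0% in the strongest quintile and 100.0% in the weakest.

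**Figure D1:**
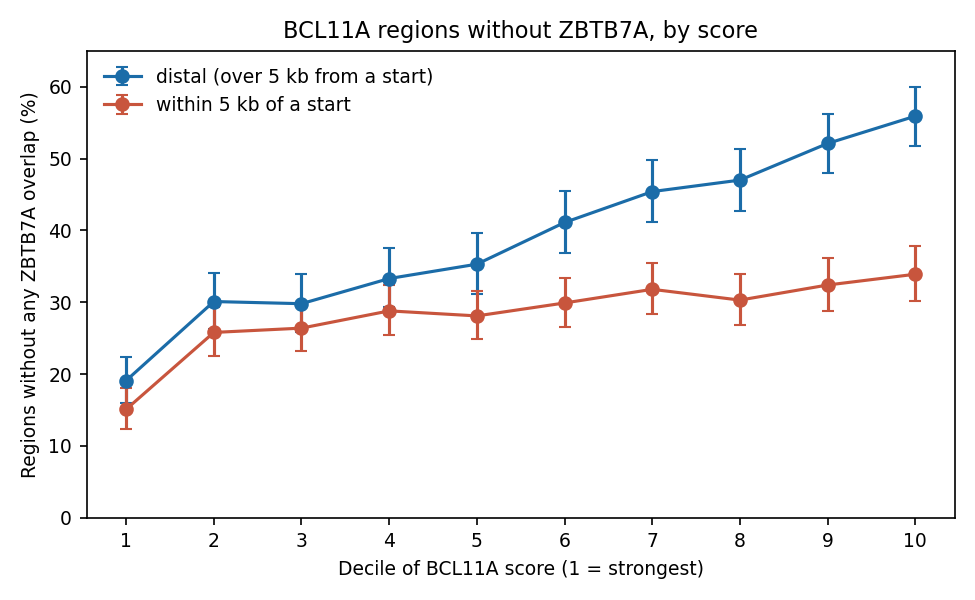
Share of BCL11A regions that no ZBTB7A region overlapped (vertical axis, percent) in each decile of the BCL11A score (horizontal axis, 1 is the strongest), for distal regions (blue) and regions within 5 kb of a start (red). Points are shares with exact 95% binomial intervals; the distal share is 19.1% in the strongest decile and 55.9% in the weakest, and the start-near share 15.1% and 33.9%.

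The strongest ZBTB7A-free region (chr1:209747700-209748127, score 614, rank 49 of the BCL11A list) lay 8118 bp upstream of TRAF3IP3, a gene of lymphocyte signalling, and 36013 bp from the nearest ZBTB7A region. The next 2 lay 82908 bp upstream of METTL9, a methyltransferase gene (chr16:21514121-21514504, score 602), and 99014 bp downstream of the start of ADRA2A, an adrenergic receptor gene (chr10:111175829-111176263, score 575). These 3 regions lay outside NM genes, and the last 2 lay 40157 and 47879 bp from ZBTB7A. A region in an intron near CNTRL, a centriole gene, had a score of 537 and a gap of 689 bp. The region at TNRC18 (chr7:5452316-5452871, score 475) was the widest of the strongest 20, at 556 bp, and lay 99 bp from a ZBTB7A region. Strong BCL11A regions without ZBTB7A overlap thus included both isolated regions and regions beside ZBTB7A.

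The region at ANKRD9 scored 433, the one at TGOLN2, a trans-Golgi protein gene, 426, and the one at MLN, the motilin gene, 421. A region 64843 bp downstream of the start of MYC, the growth-promoting transcription factor gene, scored 384, and a region at PTGES2, a prostaglandin synthase gene, scored 376. The other 10 of the strongest 20 scored 225 to 327 and lay nearest to MYOM2, CRIP2, SLC6A12, CSF1, TCEA2, ATP11B, FKBP3, CAPZA1, ZDHHC19 and TEC. CSF1 encodes the growth factor of macrophages, and its region (chr1:109931091-109931455, score 272) lay 20662 bp downstream of the start and 34918 bp from ZBTB7A. TEC encodes a kinase of cytokine receptor signalling, and its intronic region (chr4:48255341-48255701, score 225) lay 195 bp from ZBTB7A. The region near MYOM2 was the most isolated of the 20, with a gap of 314771 bp.

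A ZBTB7A region lay within 10 kb of most ZBTB7A-free regions, within 5 kb of 36.6% and within 1 kb of 17.2%. The shares for arbitrary genome positions were not measured. The median gap from a ZBTB7A-free region to the nearest ZBTB7A region of any list was 9028.5 bp (quartiles 2214.75 and 33365.5), and 1124 of 2150 (52.3%, 50.1 to 54.4) had one within 10 kb. For start-near BCL11A regions without ZBTB7A the median gap was 1101 bp and 76.5% (74.5 to 78.4) had a neighbour within 10 kb. Within 500 bp the shares were 251 of 2150 (11.7%, 10.3 to 13.1) and 36.8% (34.7 to 39.0). The median gap to the WT list was 15743 bp, to the K562 list 26186 bp and to the 195C>G list 29703.5 bp. For K562 this covers the 2143 regions on chromosomes that hold a K562 region. The WT list is also the longest. Where ZBTB7A regions lay within 500 bp, the highest deposited signal among them was taken. Its median was 36.9 for the WT list and 49.8 for the 195C>G list. The medians over all regions were 25.6 for the WT list and 40.0 for the 195C>G list. Taking the highest signal favours larger values, so whether these neighbours were low for their list was not tested. The plot of gaps shows the ZBTB7A-free distal curve below the start-near curve at every window drawn.

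**Figure D2:**
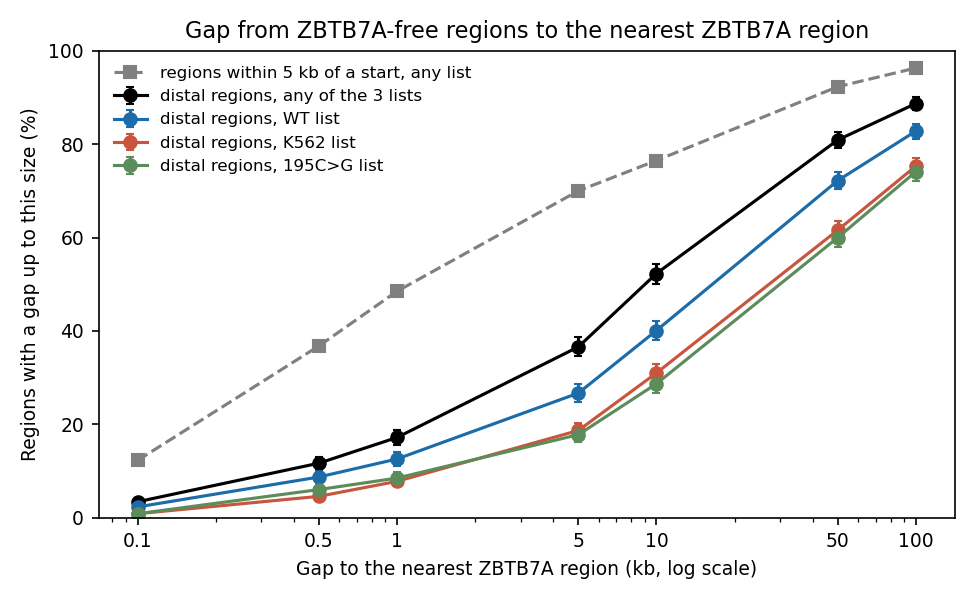
Cumulative share of ZBTB7A-free BCL11A regions (vertical axis, percent) with a gap up to the size on the horizontal axis (kb, log scale) to the nearest ZBTB7A region, for the 2150 distal regions against any list (black) and each list, with exact 95% binomial intervals, and for the 1906 start-near regions against any list (grey, no intervals drawn). At 10 kb the distal share is 52.3% and the start-near share 76.5%.

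The ZBTB7A-free regions lay at a similar median distance from NM starts as the shared ones, with a higher upper quartile. The median distance to the nearest NM start was 28371 bp (quartiles 12289 and 73175), compared with 26197.5 bp (12135.5 and 59314.5) for ZBTB7A-shared distal regions. The midpoint lay inside an NM gene in 51.7% (49.6 to 53.9) against 48.9% (47.2 to 50.6), in an intron in 45.4% (43.3 to 47.6) against 43.9% (42.2 to 45.6), and in an exon in 6.28% (5.29 to 7.39) against 5.0% (4.29 to 5.79). These intervals overlap. Starts of noncoding (NR) transcripts within 1 kb were less common, 2.93% (2.26 to 3.73) against 5.09% (4.37 to 5.88). Among the ZBTB7A-free regions, the weakest quintile by score lay farthest from a start (median 40978.5 bp, against 26438 bp in the strongest quintile).

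ZBTB7A-free regions stood alone more often than shared ones. Joined over gaps of up to 12.5 kb, the 2150 regions formed 1843 clusters, of which 1614 were a single region, 178 held 2 and 51 held 3 or more. In company of another of their kind were 536 ZBTB7A-free regions (24.9%, 23.1 to 26.8) and 1257 of 3362 shared ones (37.4%, 35.7 to 39.0), a difference that the larger number of shared regions also favours. Here and below, entries that overlap each other count as separate regions and as company, as at NFATC1. Merged, the ZBTB7A-free regions were 2063 sites and the shared ones 3165. Within 12.5 kb of a ZBTB7A-shared distal region lay 461 of the ZBTB7A-free regions (21.4%), and within 12.5 kb of a start-near BCL11A region 319 (14.8%). The largest cluster, 7 regions over 23.0 kb (chr18:79504054-79527026, scores 16.6 to 117), lay in introns near NFATC1, a calcium-regulated transcription factor gene, with 1 shared region beside it. Clusters of 5 lay at METTL9 with NPIPB3 (scores 17.7 to 602), at FGFRL1, a fibroblast growth factor receptor-like gene (16.2 to 153), at GSE1 (14.0 to 99.9), at IQSEC1 (23.7 to 61.4) and at ELMSAN1 with PNMA1 (17.0 to 25.1). No shared distal region lay within 12.5 kb of the clusters at METTL9 and FGFRL1.

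The 2150 regions were nearest to 1583 NM genes, 8.76% of 18069, and 1241 of these genes had 1 region, 322 had 2 to 4 and 20 had 5 or more. MYC and SRGAP2C had the most, 15 each. At MYC all 15 lay downstream of the start, from 5.74 to 1003 kb away, with scores from 13.8 to 384 and a median of 22.7. The strongest (chr8:127800721-127801102) and the second (chr8:127949708-127950019, score 205, 214 kb downstream) stood apart from the others, which scored 48.8 or less. The gaps to ZBTB7A at MYC ran from 0.074 kb to 412 kb, and another 15 distal regions nearest to MYC did share ZBTB7A. MYC was thus the nearest gene of both kinds in equal number.

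KLF13, a Krüppel-like factor gene of erythroid cells, had 10 ZBTB7A-free regions and 1 shared one. The strongest, scores 79.8 and 71.1, lay 190 and 162 kb downstream of its start, 80.9 and 53.2 kb from ZBTB7A. Both lay in an intron, whereas a region 114 kb downstream lay outside NM genes. These 2 regions thus lay beyond KLF13, within another gene, and count for KLF13 only because its start was nearest. NFATC1 had 9 and 1, GSE1, a corepressor-associated gene, 9 and 12, ASAP1 7 and 5, and ANKRD9 6 and 2. ZFPM2, which encodes a partner of GATA factors, had 9 and 2, and its scores did not exceed 33.6. RALYL, on chromosome 8, had 11 and 0, all with scores of 23.8 or less. They lay 230 to 1088 kb upstream of the nearest RALYL start. The one at 230 kb was in an intron, and its nearest start differed from that of the others. TUBA3C, on chromosome 13, had 10 and 0, and SRGAP2C 15 and 0. The map around these genes shows strong regions at MYC, KLF13, NFATC1 and GSE1 and weak ones at RALYL and ZFPM2.

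The regions nearest to SRGAP2C and EMB, and 8 of the 10 nearest to TUBA3C, were far from any gene. Over 500 kb from every NM or NR start lay 47 ZBTB7A-free regions (2.19%), compared with 12 shared ones (0.357%). Of the 47, 15 lay on chromosome 1 between 122818188 and 124741607 with scores of 13.7 to 31.8, 8 on chromosome 13 between 17095231 and 17687701 (14.0 to 28.8), and 5 on chromosome 5 between 49599285 and 49657582 (17.1 to 26.0). All of the regions on these 3 chromosomes were 370 bp wide. As background, these stretches belong to centromeres, where the hg38 assembly holds modelled repeat sequence.

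Some genes of red cell biology were nearest, at times over long distances, to ZBTB7A-free regions, as were some genes of other lists. Set beside the 8.76% of all NM genes nearest to at least 1 such region, the share was 10 of 32 erythroid transcription factors (31.2%, 16.1 to 50.0), 10 of 23 genes of cytokine signalling and survival (43.5%, 23.2 to 65.5), 7 of 30 red cell membrane and surface genes (23.3%, 9.93 to 42.3) and 6 of 23 fetal globin regulators (26.1%, 10.2 to 48.4). Subunits of NuRD and other corepressors had 5 of 24 (20.8%, 7.13 to 42.2) and megakaryocyte genes 4 of 17 (23.5%, 6.81 to 49.9). Genes of heme synthesis and iron had 2 of 30 (6.67%), myeloid genes 1 of 17, lymphoid genes 1 of 12, hepatocyte and neuron genes 2 of 17, and the 5 globin genes outside chromosome 11 had none. The lists are small, and some genes stand in more than 1 of them. They were chosen with results of these data known, and differ in how much sequence surrounds their genes. Nothing particular to them therefore follows from these counts. ZBTB7A-shared distal regions were nearest to 2221 NM genes (12.3%), among them 14 of the 32 erythroid transcription factors, 13 of the 23 cytokine genes, 16 of the 30 membrane genes and 8 of the 30 heme and iron genes.

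The 10 erythroid transcription factor genes were the nearest genes of 40 ZBTB7A-free regions, 15 of them assigned to MYC and 10 to KLF13. ZFPM1, encoding FOG1, the cofactor of GATA1, had 5, and the strongest (chr16:88461552-88461924, score 91.8) lay in an intron 8.13 kb from the start and 57 bp from ZBTB7A. GFI1B, a repressor needed for red cell and platelet formation, had 3, with a highest score of 77.1. RUNX1 had 2 (up to 47.3), and GATA2, MYB, KLF3, ERG and HIC2 had 1 each, with scores from 13.6 to 16.1. ZFPM1 also had 7 shared distal regions and GFI1B and RUNX1 2 each, while GATA2, KLF3, ERG and HIC2 had none.

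Among fetal globin regulators, NFIA and NFIX, the nuclear factor I genes, carried the strongest regions. At NFIA there were 6, the strongest in an intron 122 kb from the start (chr1:61204657-61204826, score 64.9) and 33580 bp from ZBTB7A, and 5 shared regions. At NFIX a region 10379 bp upstream (chr19:12985322-12985460, score 70.8) lay 97 bp from ZBTB7A, and 6 others were shared. EIF2AK1, the heme-regulated kinase gene, had 1 of score 14.8, and IGF2BP1, an RNA-binding regulator of fetal genes, 1 of score 22.0.

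The 10 of 23 cytokine signalling and survival genes with a ZBTB7A-free region had 1 to 3 each. EPOR, the erythropoietin receptor gene, had 2 ZBTB7A-free regions, which overlapped each other and had the same score (52.3), and no shared one. They lay 16719 and 16926 bp upstream of its start, in an intron of an NM gene. CISH, a feedback inhibitor of that receptor's signalling, had 3 and no shared one, the strongest at chr3:50601016-50601264 (score 77.5, 10.7 kb from the start). LYN, a kinase in the same pathway, had 2 (up to 107) and 3 shared, and KIT, the stem cell factor receptor gene, 1 (48.7) and 3 shared. BCL2L1, encoding the survival protein BCL-XL, had 1 in an intron (54.9). The remaining 5 genes with a region were PIM1, BCL2L11, CSF2RB, PIK3R1 and SOCS1, with highest scores from 14.7 to 42.4.

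At red cell membrane genes, SLC4A1, the anion exchanger band 3, had a region 20380 bp downstream of its start (chr17:44247580-44247929, score 144) 131 bp from ZBTB7A, and 2 shared regions. ANK1, the ankyrin that ties the membrane to the cytoskeleton, had 2 (strongest 117, in an intron) and 5 shared, and SLC2A1, the glucose transporter, 2 (strongest 52.1) and 1 shared. RHD, RHCE, BSG and SEMA7A, surface antigen genes, had 1 or 2 each, with highest scores from 15.3 to 37.4. RHD and RHCE are near-identical copies, so reads between them may be split. At heme and iron genes, SLC25A37, the mitochondrial iron importer, had 2 (24.4 and 19.4) and 4 shared, and HMOX2, a heme oxygenase gene, 1 (35.7). Corepressor subunit genes with a region included RCOR1 (44.2), MTA1 (27.6), TBL1XR1 (25.5) and GATAD2A (highest score 15.4). Outside the red cell lists, GP9, a platelet glycoprotein, had 3 (strongest 88.6), RAB27B, a secretory granule GTPase, 1 (57.3) and CSF1R, the macrophage receptor, 1 (26.0).

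The promoters of the genes nearest to ZBTB7A-free regions carried a WT ZBTB7A region at a share near that of all NM genes. A WT ZBTB7A region lay within 1 kb of an NM start in 788 of 1583 of these genes (49.8%, 47.3 to 52.3), compared with 45.4% of all NM genes and 57.3% (55.2 to 59.4) of the 2221 genes nearest to a shared distal region. BCL11A lay at the promoter of 34.2% (31.9 to 36.6) of the 1583 and 35.0% of the 2221, against 24.6% of all NM genes. For 1016 genes nearest to ZBTB7A-free regions and to no shared one, the promoter share was 46.9% (43.8 to 50.1) for WT ZBTB7A and 30.3% (27.5 to 33.2) for BCL11A. Any of the 3 ZBTB7A lists reached 60.5% of the 1583 promoters and 52.5% of all. For the 1016 genes any list reached 57.3% (54.2 to 60.3), the K562 list 36.3% (33.4 to 39.4, against 33.3% of all) and the 195C>G list 32.8% (29.9 to 35.8, against 29.5%). Of these shares of the 1016, only the interval of the WT list holds the share over all NM genes.

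ZBTB7A-free regions were spread unevenly over the numbered chromosomes and X. On chromosome 8, 212 of 397 distal regions were ZBTB7A-free (53.4%, 48.4 to 58.4), where 43.1% would follow from the score deciles of its regions, and the share over all other chromosomes was 37.9% (36.6 to 39.2). On the X chromosome it was 50 of 84 (59.5%, 48.3 to 70.1), 19.9 points above the share from score, and on chromosome 19 it was 128 of 472 (27.1%, 23.2 to 31.4) against 38.0% from score. Chromosome 17 also lay under the share from score, with 109 of 337 (32.3%, 27.4 to 37.6) against 38.4%. Chromosomes 21 (51.8%, 40.7 to 62.7), 14 (50.8%, 43.3 to 58.4) and 4 (50.3%, 42.2 to 58.4) also lay above the shares from score, which were 39.0%, 38.9% and 40.0%, so chromosome 8 did not stand apart from these. Among start-near BCL11A regions, 28.3% were without ZBTB7A over all these chromosomes. That share was 44.7% on X, 17.6% on chromosome 19, 21.2% on chromosome 17 and 31.0% on chromosome 8. On chromosomes 21, 14 and 4 it was 35.8%, 33.3% and 33.8%. The median score of the ZBTB7A-free distal regions on chromosome 8 was 16.9. That chromosome held 9.86% of the ZBTB7A-free regions and 5.90% of the BCL11A list, with 6.07% of the WT and 3.47% of the K562 list. Between 75 and 110 Mb, a stretch chosen after its values were seen, 113 of 165 distal regions were ZBTB7A-free (68.5%, 60.8 to 75.5), with a median score of 15.6 and a median gap of 18.4 kb. From 0 to 75 Mb it was 41 of 118 (34.7%). RALYL and ZFPM2 lie between 75 and 110 Mb, while MYC lies beyond 110 Mb, where it was 58 of 114 (50.9%).

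Of the microRNA hairpins in RefSeq, 3 lay within ZBTB7A-free regions. The region over MIR3187 (chr19:813510-813653, score 46.9), in an exon near PLPPR3, lay 1 bp from a ZBTB7A region. The region over MIR3180-4 (chr16:15154622-15154991, score 19.2) was near RRN3, and the one over MIR9-3 (chr15:89367703-89368072, score 16.2) near POLG. MIR3180-4 has near-identical copies, so its position is uncertain.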

How the data were processed

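ChIP-seq regions from 16 libraries were used. Per the submitters' processing notes, the tools were Trimmomatic 0.3.2, Bowtie2 2.2.9, Bowtie, Picard and bedtools, and the build was GRCh38/hg38. Controls are input by title and an immunoglobulin by antibody label. The labels give the inducer both as 1e-07 M and as an amount.

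The authors deposited 4 lists. The deposited BCL11A list pools both replicates and gives a score per region without a summit. The deposited K562 list, pooled over replicates, holds no value. The deposited WT and 195C>G lists come from 1 library each, with a signal per region and the −log10 of a false discovery rate, and use a modified chromosome 11. The peak caller's settings and the depth are not given in the sources used here, so the precision beyond counting error is unknown.

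Standard chromosomes without 11 were kept, and identical regions were counted once with the highest score. Overlaps needed 1 bp, and coordinates are 1-based. "Distal" holds for the authors' annotation: a few distal regions touch a coding start in the newer RefSeq table. Each region was assigned to the nearest NM start. Shares carry exact Clopper-Pearson 95% intervals. Because the lists hold no values per replicate and the regions were selected on them, no p-value is given. The share predicted for a chromosome is the mean over its regions of the share in each one's score decile.

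Named are the nearest genes of the 20 strongest regions, the 3 strongest regions per gene list, the 10 genes with the most regions and the regions at the thresholds. Sequences on chromosome 8 and over NM exons were not printed. The region of 1 gene that this rule names is not reported here. The other listed genes and the chromosome 8 stretch were named after their values were seen. The regions, the 11 gene lists and the motifs were chosen with earlier results of these data known. Motif and GC values within every region, planned, need a genome that was not used here, and the RefSeq promoter windows stand in their place. Python 3.11.15, pandas 2.3.3, SciPy 1.17.1 and bedtools 2.31.1 were used, and the overlap and distance code was tested on simulated regions against bedtools.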

Additional observations from a re-analysis of the deposited data

How the results depend on the processing

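Of 40 alternative values, 15 stayed within the interval of the value reported and 25 moved outside it. The share of distal regions that were ZBTB7A-free (39.0%) became 42.0% for regions beyond 50 kb, 32.3% when a ZBTB7A region within 1 kb counted as shared, 56.7% with reciprocal overlap of at least 50%, 76.7% against the K562 list alone, 46.1% against the WT list alone, 61.2% against the 195C>G list alone and 29.2% in the stronger 50% of the BCL11A list. The median score (23.6) became 21.2, 28.3, 27.3, 24.7, 26.2 and 48.5 beyond 50 kb, with reciprocal overlap, against the K562, WT and 195C>G lists alone and in the stronger 50%. The share inside a gene (51.7%) became 57.3% with NR transcripts added and 54.1%, 49.3% and 38.4% for regions beyond 2, 10 and 50 kb. The share within 10 kb of ZBTB7A (52.3%) became 36.6% and 80.9% for gaps of 5 and 50 kb, 57.1%, 44.6% and 32.7% for regions beyond 2, 10 and 50 kb, and 30.8%, 40.5% and 32.8% for the K562, WT and 195C>G lists alone. These shifts follow from which regions each alternative counts. Merging overlapping regions kept 39.3% and a median score of 23.8. No paired analysis was possible because the lists are pooled over replicates or come from 1 library, and for the same reason no replicate could be left out. The planned motif and GC alternatives were not run. Absence from a list is not absence of binding at unknown depth.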
